A study of Mus musculus with 34 samples.

Results

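In control dendritic cells stimulated with LPS, 686 of the 5465 p65 peaks were absent before stimulation, lay away from promoters and carried H3K27 acetylation only after stimulation. These sites were selected on 4 deposited peak lists. Each was a peak of the LPS-stimulated control p65 list that overlapped no p65 peak and no H3K27ac peak of the unstimulated control. It overlapped an H3K27ac peak of the stimulated control. No base of it lay within 2.5 kb of the start of any annotated gene's longest transcript. If the starts of all transcripts were used, 641 of the sites would remain. Because p65 and H3K27ac in the control chose the sites, those values describe them and are not a finding. An overlap was 1 bp or more. The measurements that the choice did not use were H3K4me1, the cohesin subunit SMC1, CTCF, STAT5, H3K4me3 and H3K27me3 in every condition, and p65 and H3K27ac in the CTCF-deficient cells. They were set beside 2 like groups of the same p65 list, also induced and distal: 2246 peaks that already had H3K27ac before LPS (previously acetylated sites) and 923 peaks with no H3K27ac before or after LPS (unacetylated sites). The remaining p65 peaks were 884 induced peaks at promoters and 726 peaks that were bound before LPS.

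The cells were bone marrow-derived dendritic cells (BMDCs) of C57BL/6 mice, labelled as 8 weeks old where the methods give a range that starts at this age, grown with GM-CSF for 6 days. Control cells (WT) carried the tamoxifen-dependent recombinase CreER and the CTCF-deficient cells (KO) carried CreER with floxed Ctcf alleles (CTCF fl/fl); both received 4-hydroxytamoxifen on the first day of culture, so the deletion was made in vitro and the controls had the same drug and recombinase. Stimulated cells (WTLPS and KOLPS) were given LPS at 100 ng/ml for 3 h, and STAT5 was mapped after restimulation with GM-CSF for 15 min without LPS. Floating CD11c+ cells were taken, which in such cultures include a smaller population with lower MHC class II beside the dendritic cells, and fewer cells carrying a peak cannot be told apart from less binding per cell in such bulk samples. Each antibody and condition had 1 peak list, so no difference between conditions had a replicate test, and the intervals given here cover counting error over sites only.

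p65 (RelA) is the transactivating subunit of the main NF-kB dimer, which is held in the cytoplasm by inhibitor proteins and enters the nucleus when Toll-like receptor 4 is engaged by LPS. H3K4me1 marks enhancers whether or not they are active, whereas H3K27ac marks active ones, and macrophages and dendritic cells hold many enhancers that are marked with H3K4me1 at rest and acquire acetylation with a stimulus. SMC1 is a core subunit of cohesin, the ring complex that extrudes chromatin loops and is halted by CTCF bound to DNA.

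The DNA under the summits is shown for 8 of these sites, chosen to cover strongly bound sites, sites near genes of the NF-kB response and a site without a match to the NF-kB motif. Each line gives the plus strand of mm10 (RefSeq GRCm38.p6) over the 101 bases centred on the summit, named by the nearest protein-coding gene. Capitals mark a match on either strand to the NF-kB consensus or to its short form, GGAANNNCC.
Twist2 chr1:91674311-91674411: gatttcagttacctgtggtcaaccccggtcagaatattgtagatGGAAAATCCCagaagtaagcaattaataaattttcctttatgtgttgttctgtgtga
Mmrn1 chr6:60967147-60967247: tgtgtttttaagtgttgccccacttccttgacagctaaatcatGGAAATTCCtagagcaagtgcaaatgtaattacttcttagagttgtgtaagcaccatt
Ripor2 chr13:24591923-24592023: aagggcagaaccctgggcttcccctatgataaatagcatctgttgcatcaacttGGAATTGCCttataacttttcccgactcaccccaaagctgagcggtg
Il12a chr3:68636903-68637003: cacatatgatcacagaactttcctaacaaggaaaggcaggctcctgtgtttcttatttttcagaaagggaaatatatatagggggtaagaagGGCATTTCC
Il12b chr11:44390159-44390259: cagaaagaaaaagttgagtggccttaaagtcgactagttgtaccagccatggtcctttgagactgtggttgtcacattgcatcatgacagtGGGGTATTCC
Ripk2 chr4:16198832-16198932: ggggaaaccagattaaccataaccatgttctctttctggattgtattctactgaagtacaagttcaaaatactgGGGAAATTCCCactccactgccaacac
Tlx1 chr19:45176310-45176410: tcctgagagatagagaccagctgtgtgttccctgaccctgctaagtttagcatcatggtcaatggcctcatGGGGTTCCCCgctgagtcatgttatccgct
Marco chr1:120524282-120524382: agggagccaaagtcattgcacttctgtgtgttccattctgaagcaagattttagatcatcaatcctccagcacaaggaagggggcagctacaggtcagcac
The match lay near the middle of the window at the Twist2, Mmrn1 and Ripor2 sites and towards the right end at the Il12a and Il12b sites. The Marco site, among the 10 strongest, had no match to either form.

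The 686 sites lay on 20 chromosomes, with 336 in introns, 35 in exons and 315 outside genes. The summit was a median of 46830 bp from the nearest protein-coding start (interquartile range 17450 to 106618 bp), with 105 sites within 10 kb of a start and 506 within 100 kb. They took part in 672 distinct H3K27ac peaks of WTLPS cells. Most had no other site of this set nearby. When sites with a gap of at most 12.5 kb between their edges were joined, 629 groups resulted, and 50 of these held 2 to 4 sites (107 sites in all). Other p65 peaks were not counted in these groups. A site is therefore a place at which p65 and acetylation appeared together, not in general an entire domain that was silent before. A WT H3K27ac peak lay within 1 kb of 352 sites and within 5 kb of 471, and the median gap to the nearest was 901.5 bp. Only 1 site had a WT p65 peak within 1 kb.

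MACS2 fold enrichment, the pileup at the summit over the local background, was 7.55 at the median in WTLPS p65 (range 3.77 to 35.57), against 7.01 at previously acetylated sites and 5.93 at unacetylated sites. Solved from the fold and the p-value, these heights corresponded to 6 to 65 fragments at the summit, with a median of 13. The median peak width was 322 bp. H3K27ac at the same sites in WTLPS had a median fold of 6.37 (range 3.19 to 35.5) in peaks with a median width of 982 bp.

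Sites just inside and just outside the rule differed by a base. Sites near Slc38a6 (p65 fold 9.16), Slc7a8 and Ccser1 were kept although a WT H3K27ac peak ended directly beside them, and sites near Txndc2 (16.71) and Mob3c were left out for an overlap of 1 bp. At the other edge, sites near Lpp and Sirpb1a were kept for 1 bp of a WTLPS H3K27ac peak, while those near Meis1 (5.93) and Bcl3 (8.20) touched such a peak without overlap and were left out. The kept summit nearest to the start of a gene's longest transcript, by Yme1l1, was 2646 bp away. The overlap rule decides many members: if 50% of the p65 peak had to be covered, 686 sites also met the rule, but only 335 of them were in the set described here, and with the summit base alone 333 of 642 were.

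The lists differed in size and depth. The p65 lists of WT, WTLPS, KO and KOLPS held 781, 5465, 504 and 1752 peaks, those of SMC1 63638, 57354, 29965 and 17241, those of H3K27ac 77050 to 83461, and CTCF fell from 60537 (WT) to 20151 (KO) and from 54020 (WTLPS) to 11576 (KOLPS), so CTCF was reduced and not absent. The summit background recovered from the peak values, in fragments per base, was 0.855 in WTLPS p65 against 0.817 in KOLPS, 5.77 against 4.50 for SMC1 and 1.20 against 0.801 for H3K27ac. If the WTLPS peaks at the 686 sites were thinned to the KOLPS background and threshold, 662.2 would be expected to pass for p65 (96.5%), 557.5 of 598 for SMC1 and 644.9 for H3K27ac. The efficiency of the immunoprecipitations was not measured. As a check of cell type, all 11 dendritic cell markers and all 7 macrophage markers examined had H3K4me3 at their promoters in WT, against 2 of 8 neutrophil, 1 of 6 T cell, 2 of 5 B cell, 2 of 6 erythroid and 3 of 6 mast cell and progenitor markers. H3K4me3 lay at 56.7% of all protein-coding promoters. H3K27ac in WT lay at 10 of the 11 dendritic cell and 4 of the 7 macrophage markers. It lay at 1 of 8 neutrophil and 1 of 6 T cell markers and at none of the other 3 lists (44.1% of all protein-coding promoters).

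**Figure D1:**
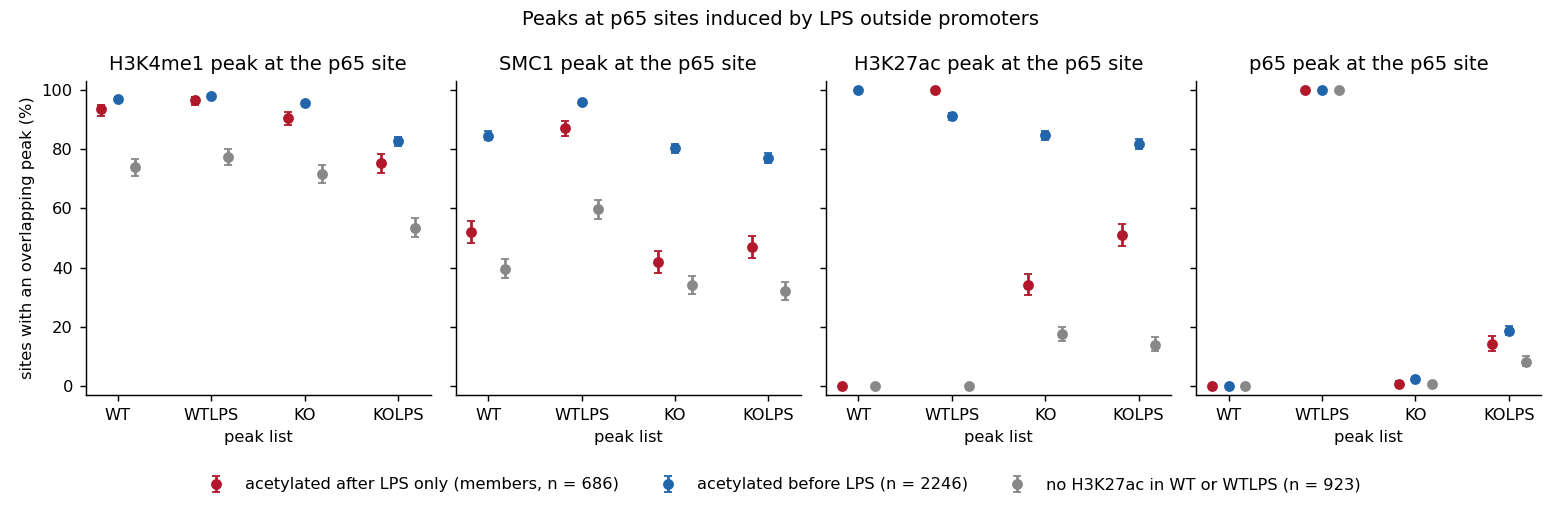
Share of sites (%, with 95% Wilson intervals) overlapping a peak of each list, for the 686 sites with induced H3K27ac, the 2246 previously acetylated sites and the 923 unacetylated sites. At the 686 sites SMC1 rises from 52.0% in WT to 87.2% in WTLPS, but only from 41.8% in KO to 46.9% in KOLPS.

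Nearly all of these sites carried the enhancer mark before LPS. H3K4me1 in unstimulated WT cells covered 641 of 686 sites (93.4%, 95% Wilson interval 91.3 to 95.1), against 89.1% of all WTLPS p65 peaks. The share differed by -3.62 points from that of previously acetylated sites (interval of the difference -5.82 to -1.82 points) and was 19.6 points above that of unacetylated sites (16.1 to 22.9). It was 663 sites (96.6%) in WTLPS and 622 (90.7%) in KO. In KOLPS it was 516 (75.2%), 15.5 points less than in KO at the same sites (12.4 to 18.5), with a background of 71.4% of all p65 peaks. The fall was 15.1 points over all p65 peaks, 12.8 points at previously acetylated and 18.2 points at unacetylated sites. The KOLPS H3K4me1 list was also the smallest of its antibody, with 79120 peaks against 93525 in KO, and the part of list size in this fall was not tested. The 45 sites without prior H3K4me1 had SMC1 less often than the others in all 4 conditions, by 43.8 points before LPS (30.8 to 51.1) and 24.3 after (11.7 to 39.1) in control cells, and by 37.6 points before (25.8 to 43.5) and 28.8 after (14.5 to 38.7) in CTCF-deficient cells.

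In control cells, SMC1 appeared with LPS at 244 of the 686 sites. SMC1 overlapped 357 sites before LPS (52.0%, 48.3 to 55.8), where 72.4% of all p65 peaks had it, and 598 after LPS (87.2%, 84.5 to 89.5), where 88.0% of all p65 peaks had it. The gain was thus 35.6% of the sites (32.1 to 39.2), and 3 sites lost SMC1. The background for such a gain was 16.3% of all p65 peaks. The gain was 23.8 points more frequent than at previously acetylated sites (20.1 to 27.7), of which 84.6% had SMC1 already, and 14.3 points more frequent than at unacetylated sites (9.88 to 18.8). Among sites that lacked SMC1 before LPS, however, the gain did not differ beyond counting error from that at previously acetylated sites: 244 of 329 acquired it here (74.2%, 69.2 to 78.6) and 264 of 346 at previously acetylated sites (76.3%), a difference of -2.14 points (-8.64 to 4.36), against 35.2% of unacetylated sites and 58.9% of all p65 peaks. The gained SMC1 peaks had a median fold of 4.73 and 22 to 113 fragments at the summit (median 32). Where SMC1 was present in both lists, its fold was also higher after LPS at 293 of 354 sites, with medians of 5.47 in WT and 7.54 in WTLPS. At previously acetylated sites the fold was higher at 1274 of 1891, so a rise with LPS was not restricted to the sites described here.

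In CTCF-deficient cells the same step was small. SMC1 overlapped 287 sites in KO (41.8%, 38.2 to 45.6), with a background of 66.8% of all p65 peaks, and 322 in KOLPS (46.9%, 43.2 to 50.7), with a background of 65.2%. KOLPS gained SMC1 at 82 sites (11.95%, background 6.84%) and lost it at 47, a net change of 5.10 points (1.88 to 8.32) against 35.1 points in control cells (31.5 to 38.8). The KO change was 0.583 points when 50% of the site had to be covered and 0.875 points with the stronger 50% of SMC1 peaks, both with intervals that included 0. Among the 399 sites that lacked SMC1 in KO, 20.6% acquired it, against 30.8% at previously acetylated sites (a difference of -10.2 points, -15.99 to -4.31), 8.37% at unacetylated sites and 20.6% over all p65 peaks. The control change exceeded the KO change by 30.0 points (25.7 to 34.4) at these sites, by 22.0 points at unacetylated sites, by 14.6 points at previously acetylated sites and by 17.3 points over all p65 peaks. The KOLPS share was 40.2 points below that in WTLPS (36.4 to 44.0), and at the 316 sites with SMC1 in both lists the fold was lower in KOLPS at 292, with medians of 7.84 and 5.10. At previously acetylated sites the fold was lower in KOLPS at 1562 of 1722. The SMC1 background was also lower in KOLPS, and its part in these differences was not tested.

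In CTCF-deficient cells, p65 was found at few of these sites. A KO p65 peak before LPS overlapped 6 sites (0.875%, background 7.61%). In KOLPS, p65 overlapped 98 sites (14.3%, 11.9 to 17.1), against 22.7% of all WTLPS p65 peaks, a background that includes the 726 peaks bound before LPS. The share was 18.8% at previously acetylated sites, a difference of 4.50 points (1.28 to 7.44). It was 8.34% at unacetylated sites, a difference of 5.94 points (2.83 to 9.19). Neither difference held under every way of counting: against previously acetylated sites it changed sign when overlaps were read at the summit base alone, and against unacetylated sites it was 2.26 points, with an interval that included 0, when 50% of the site had to be covered. Peak strength moved with retention. All WTLPS p65 peaks were divided into tertiles by −log10 p. KOLPS p65 overlapped 6.77%, 6.30% and 27.3% of the sites described here in the low, middle and high tertiles (n = 192, 238 and 256). It overlapped 6.19%, 14.2% and 40.1% of previously acetylated sites and 4.64%, 7.10% and 22.6% of unacetylated sites. Within the high tertile the share at the sites described here was 12.7 points below that of previously acetylated sites (5.85 to 19.1). In the low tertile this difference was 0.585 points, with an interval from -2.79 to 5.29.

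In KOLPS, H3K27ac was found at more of the sites than p65. H3K27ac overlapped 235 sites in unstimulated KO cells (34.3%, 30.8 to 37.9, background 66.2%), although none had a WT peak by the rule. In KOLPS it overlapped 351 (51.2%, 47.4 to 54.9, background 66.3%), which was 30.6 points below previously acetylated sites (26.5 to 34.6) and 37.1 points above unacetylated sites (32.6 to 41.4). Both comparisons are tied to how the groups were chosen. Control H3K27ac before LPS set previously acetylated sites apart, and control H3K27ac after LPS set unacetylated sites apart. KO and KOLPS both had H3K27ac at 187 sites, KOLPS alone at 164 (23.9%, background 8.22%), KO alone at 48 and neither at 287, a net gain with LPS of 16.9 points (12.9 to 20.9). Over all p65 peaks, 449 gained and 447 lost it, a net change of 0.0366 points (-1.04 to 1.11). The net change was -3.03 points at previously acetylated and -3.47 points at unacetylated sites. This comparison is tied to the choice of the groups in the same way. Of the 451 sites without H3K27ac in KO, 36.4% acquired it in KOLPS, against 39.2% at previously acetylated sites (a difference of -2.82 points, -9.62 to 3.95), 7.49% at unacetylated sites and 24.3% over all p65 peaks. The KO and KOLPS H3K27ac lists had a lower background and narrower peaks than the control lists (median widths 271 and 242 bp, against 369 and 392 bp), and the part of width in these shares was not tested. Under the other overlap rules, which also change the members, the KOLPS share was 32.9% with 50% of the site covered, 35.2% at the summit and 69.1% with peaks within 1 kb counted.

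**Figure D2:**
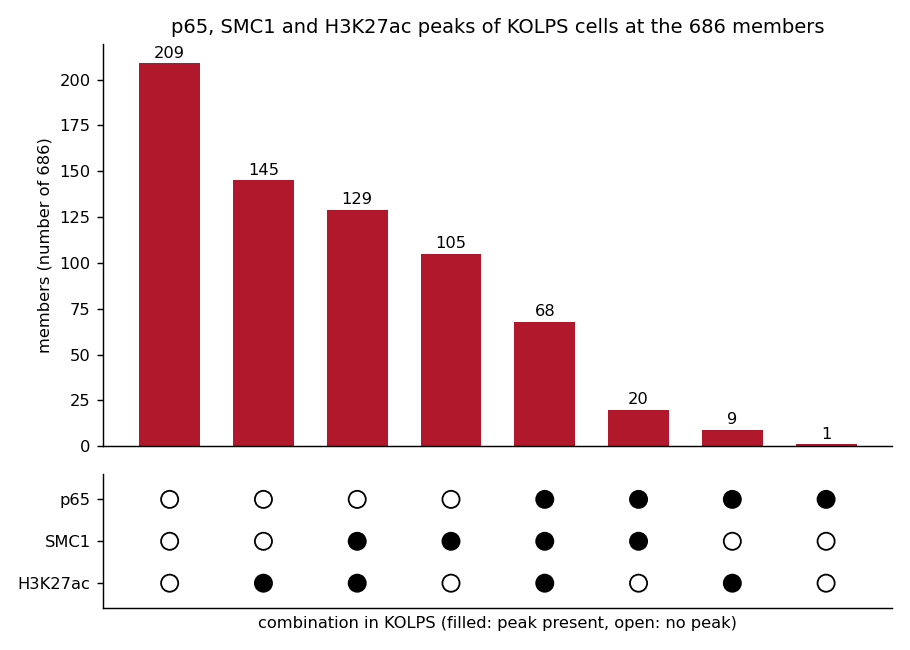
Number of the 686 sites in each combination of p65, SMC1 and H3K27ac peaks in KOLPS cells. All 3 are present at 68 sites and none at 209, and H3K27ac without p65 or SMC1 is present at 145; over all p65 peaks the shares of these combinations are 18.5%, 19.5% and 13.6%.

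The 3 measurements in KOLPS combined in all possible ways. All of p65, SMC1 and H3K27ac were found at 68 sites (9.91%, against 18.5% of all p65 peaks), and none of them at 209 (30.5%, against 19.5%). H3K27ac alone marked 145 sites (21.1%, against 13.6%), H3K27ac with SMC1 but without p65 marked 129 (18.8%, against 32.9%), and SMC1 alone marked 105 (15.3%, against 11.4%). p65 with SMC1 but without H3K27ac was found at 20 (2.92%, against 2.40%), p65 with H3K27ac but without SMC1 at 9 (1.31%, against 1.28%), and p65 alone at 1 (0.146%, against 0.512%). The shares of the same combinations at previously acetylated sites were 16.7% for all 3, 7.39% for none and 14.5% for H3K27ac alone, and at unacetylated sites 1.73%, 60.4% and 6.28%.

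Sites that had SMC1 before LPS and sites that gained it differed in KOLPS. Of the 357 sites with SMC1 in WT, 257 had it in KOLPS (72.0%), whereas 59 of the 244 that gained it in WTLPS did (24.2%), a difference of 47.8 points (40.3 to 54.4). p65 was found in KOLPS at 73 (20.4%) and 25 (10.2%) of these sites, a difference of 10.2 points (4.32 to 15.7), and H3K27ac at 210 (58.8%) and 115 (47.1%), a difference of 11.7 points (3.57 to 19.6). The 85 sites without SMC1 in either control list had no p65 peak in KOLPS (0 of 85, with an upper limit of 4.32%), 6 had SMC1 and 26 had H3K27ac. The same order held over all p65 peaks, where sites with prior SMC1, gained SMC1 and none had SMC1 in KOLPS at 82.6%, 29.7% and 4.99%, p65 at 28.4%, 11.2% and 3.06%, and H3K27ac at 76.2%, 51.7% and 23.99%.

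**Figure D3:**
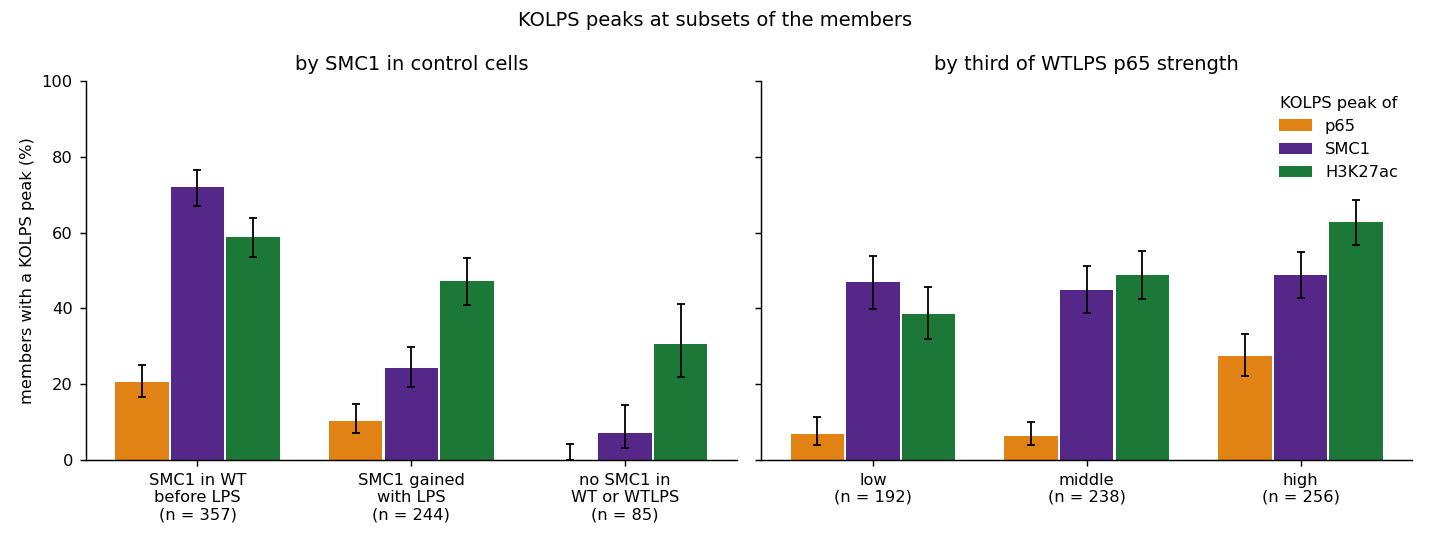
Share of the sites (members, %, bars with 95% Wilson intervals) that had p65, SMC1 or H3K27ac peaks in KOLPS, divided by SMC1 in control cells (left) and by tertiles of WTLPS p65 strength (right). SMC1 in KOLPS covers 72.0% of sites with SMC1 before LPS, 24.2% of sites that gained it and 7.06% of sites that had none.

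The 98 sites that kept p65 differed from the other sites in the KOLPS lists. All 98 had SMC1 in WTLPS, as did 98.2% of all p65 peaks with p65 in KOLPS. In KOLPS, 88 of them had SMC1 (89.8%) and 77 had H3K27ac (78.6%), against 39.8% and 46.6% of the 588 sites without p65, differences of 50 points (41.4 to 55.99) and 31.97 points (21.998 to 40.002). Over all p65 peaks, those with and without p65 in KOLPS likewise had SMC1 at 92.1% and 57.3% and H3K27ac at 87.2% and 60.1%. The 98 were also the stronger sites, with a median WTLPS p65 fold of 12.1 against 7.37. H3K27ac in KOLPS rose with p65 strength, from 38.5% to 48.7% and 62.9% over the tertiles, with 24.3 points between the high and low tertiles (15.1 to 33.1). It was 79.0%, 78.8% and 88.9% at previously acetylated sites and 11.3%, 17.0% and 16.4% at unacetylated sites. SMC1 did not follow strength at the sites described here and was 46.9%, 45.0% and 48.8%. Over the same tertiles it was 72.4%, 77.0% and 82.9% at previously acetylated sites and 28.5%, 37.0% and 32.2% at unacetylated sites. Acetylation in KO before LPS went with retention: the 235 sites with it had KOLPS p65 at 24.7% and SMC1 at 63.0%, against 8.87% and 38.6% of the 451 without. Over all p65 peaks the same shares were 29.9% and 79.1% with KO acetylation and 8.67% and 37.9% without it.

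Of the other factors, STAT5, the transcription factor that GM-CSF signalling activates, overlapped 116 sites in WT (16.9%, background 27%) and 101 in KO (14.7%, background 21.4%). The WT share was 15.8 points below that of previously acetylated sites (12.3 to 19.1) and 3.69 points above that of unacetylated sites (0.181 to 7.31). The 116 sites had SMC1 in KOLPS at 76.7% and p65 at 25.9%, against 40.9% and 11.9% of the others, and over all p65 peaks 89.2% and 36.9% stood against 56.3% and 17.5%. CTCF was seldom at the site itself, at 42 of them in WT (6.12%, background 7.76%), 32 after LPS (4.66%, background 6.33%), 11 in KO (1.603%, background 1.81%) and 6 in KOLPS (0.875%, background 1.04%), and the median distance to a WTLPS CTCF peak was 9898 bp. The promoter mark H3K4me3 overlapped 49 sites before and 34 after LPS in control cells (backgrounds 21.5% and 18.4%) and 36 and 21 in CTCF-deficient cells (backgrounds 20% and 14.2%), backgrounds that include promoter peaks. The Polycomb mark H3K27me3 overlapped 21 sites in WT (3.06%, background 2.20%), 3 in WTLPS (0.437%, background 0.604%), 11 in KO (1.603%, background 1.19%) and none of the 686 in KOLPS (background 0.128%). The WT share lay between those of previously acetylated (0.356%) and unacetylated sites (6.83%). The H3K27me3 lists also shrank with LPS, from 96475 to 65880 peaks in control and from 95080 to 26960 in CTCF-deficient cells.

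**Figure D4:**
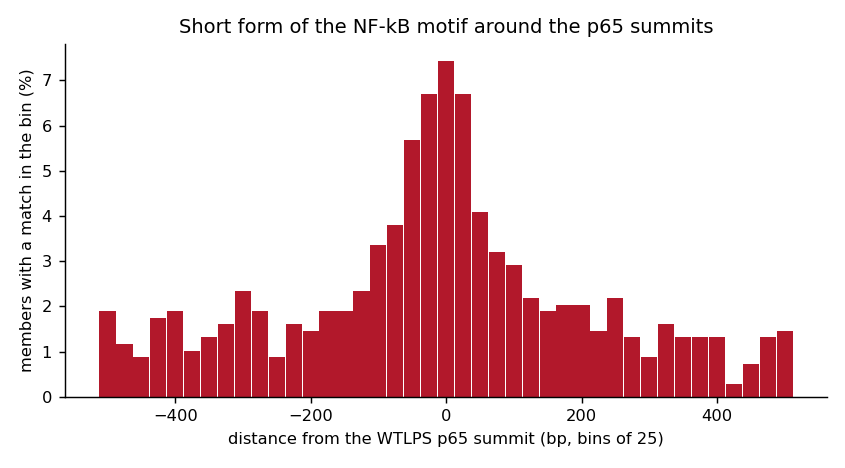
Share of the 686 sites (%) with a match to the short form of the NF-kB motif in each bin of 25 bp, against distance from the WTLPS p65 summit. The share is highest, 7.43%, in the bin at the summit.

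NF-kB motifs gathered at the summits. Within 50 bp of the summit, the NF-kB consensus occurred at 60 sites (8.75%) and at 1.02% in windows 1 kb away. Its short form GGAANNNCC, which overlaps the consensus and was added after the low share of the consensus had been seen, occurred at 160 (23.3%, against 4.88% at 1 kb and 22.5% of all p65 peaks). Most sites, like the Marco site printed above, held neither form. The short form was within 100 bp at 234 sites, at a median of 30.5 bp from the summit, and 84 of these were within 20 bp. The consensus did not differ beyond counting error from previously acetylated sites (-1.49 points, -3.80 to 1.14) or from unacetylated sites (0.0790 points, -2.67 to 2.95). The added short form was 4.00 points more frequent than at previously acetylated sites (0.550 to 7.67) and 4.36 points more frequent than at unacetylated sites (0.349 to 8.45), so a difference was seen with that form only. Motifs of other myeloid factors, searched on both strands in the same window, were TGANTCA of AP-1 at 12.2% (3.06% at 1 kb), TTGCNNAA of C/EBP at 13.6% (4.45%), GAGGAAGT of PU.1 at 4.37% (0.875%), TGTGGTTT of RUNX at 3.79% (0.875%), TTCNNNGAA of STAT at 4.81% (3.79%) and the IRF element at 3.35% (1.17%). None of these shares differed beyond counting error from those at previously acetylated or unacetylated sites. There, in that order, AP-1 was at 12.1% and 10.8%, C/EBP at 11.7% and 16.6% and PU.1 at 4.27% and 3.79%. The CTCF core motif was found in none of the 686 windows. It was also rare at previously acetylated (0.134%) and unacetylated sites (0.217%), and neither difference went beyond counting error. Sites that gained SMC1 had the short form more often than sites with prior SMC1 (27.9% and 18.8%, a difference of 9.10 points, 2.27 to 16.1) and the PU.1 motif less often (0.820% and 7.003%, a difference of 6.18 points, 3.12 to 9.37). The consensus was also more frequent at sites that gained SMC1 (11.5% and 6.16%, a difference of 5.31 points, 0.773 to 10.4). No other motif differed beyond counting error in that division. AP-1 occurred at 16.2% of the sites acetylated in KOLPS and at 8.06% of the others, a difference of 8.18 points (3.30 to 13.1). No other motif differed there, and none differed between sites with and without p65 in KOLPS. The intervals were not adjusted for the number of motifs compared, and these divisions were not made over all p65 peaks.

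The strongest site, 127.1 kb upstream of Twist2, which encodes a basic helix-loop-helix factor, had a p65 fold of 35.57 in WTLPS and 14.3 in KOLPS, and it was 1 of the 6 with a KO p65 peak. Its SMC1 peak was gained in both genotypes, at a fold of 9.02 in WTLPS and 5.10 in KOLPS, and its H3K27ac fold was 3.22 in WTLPS and 6.11 in KOLPS. The second, in an intron of Mmrn1 (multimerin 1), had a fold of 31.26 but no SMC1 in any condition, no H3K4me1 in WT and none of the 3 measurements in KOLPS. Among the 10 strongest sites, SMC1 was present in WTLPS at 9 and p65 in KOLPS at 4, the latter near Twist2, Serp2 (a protein of the endoplasmic reticulum), Slc5a1 (a sodium-glucose cotransporter) and Tasp1 (the protease taspase). The site 19.3 kb upstream of Marco, a scavenger receptor of macrophages, had a p65 fold of 26.95, gained SMC1 in WTLPS (5.77), had H3K27ac in KO (5.40) and had none of the 3 in KOLPS. Sites near Ell2 (a transcription elongation factor), Emcn (endomucin) and Unc5c (a netrin receptor), with folds of 26.95, 26.95 and 25.33, likewise gained SMC1 in WTLPS and had none of the 3 in KOLPS. The site in an intron of Ripor2 (25.33) had H3K27ac alone in KOLPS (5.55).

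At the opposite end, the sites with all 3 measurements in KOLPS and the highest KOLPS p65 lay near Mylk2, Cxcl2, Tlx1, Bcat1 and Twist2. The Mylk2 site had a higher p65 fold in KOLPS (30.27) than in WTLPS (6.47), carried p65 also in KO, and had SMC1 in all 4 conditions. The site 5.1 kb from the start of Cxcl2, a neutrophil-attracting chemokine, had p65 folds of 15.09 and 17.06 in WTLPS and KOLPS and SMC1 folds of 14.05, 18.92, 12.78 and 10.74 in WT, WTLPS, KO and KOLPS. It also had a CTCF peak in WTLPS and a STAT5 peak in WT. The Tlx1 and Bcat1 sites had p65 folds of 13.47 and 10.78 in WTLPS and of 15.96 and 14.86 in KOLPS.

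The 686 sites had 548 nearest protein-coding genes, of which 456 had 1 site, 66 had 2 and 16 had 3. Inhba, encoding the activin beta A subunit, had 9, Itgb8, encoding the integrin beta 8 chain that activates TGF-beta, had 6, and Il12a, Nfkbiz and Tnfaip3 had 5 each. Hivep2, Prg4, Prkg2, Tex13c3 and Tle3 had 4 each. Counting p65 peaks of every class, 15 were nearest to Inhba, 9 to Itgb8, 7 to Il12a, 13 to Nfkbiz and 18 to Tnfaip3. For Hivep2, Prg4, Prkg2, Tex13c3 and Tle3 these counts were 5, 4, 8, 5 and 7. Genes such as Tnfaip3 and Nfkbiz thus had many p65 peaks outside this set, whereas Prg4 had none.

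**Figure D5:**
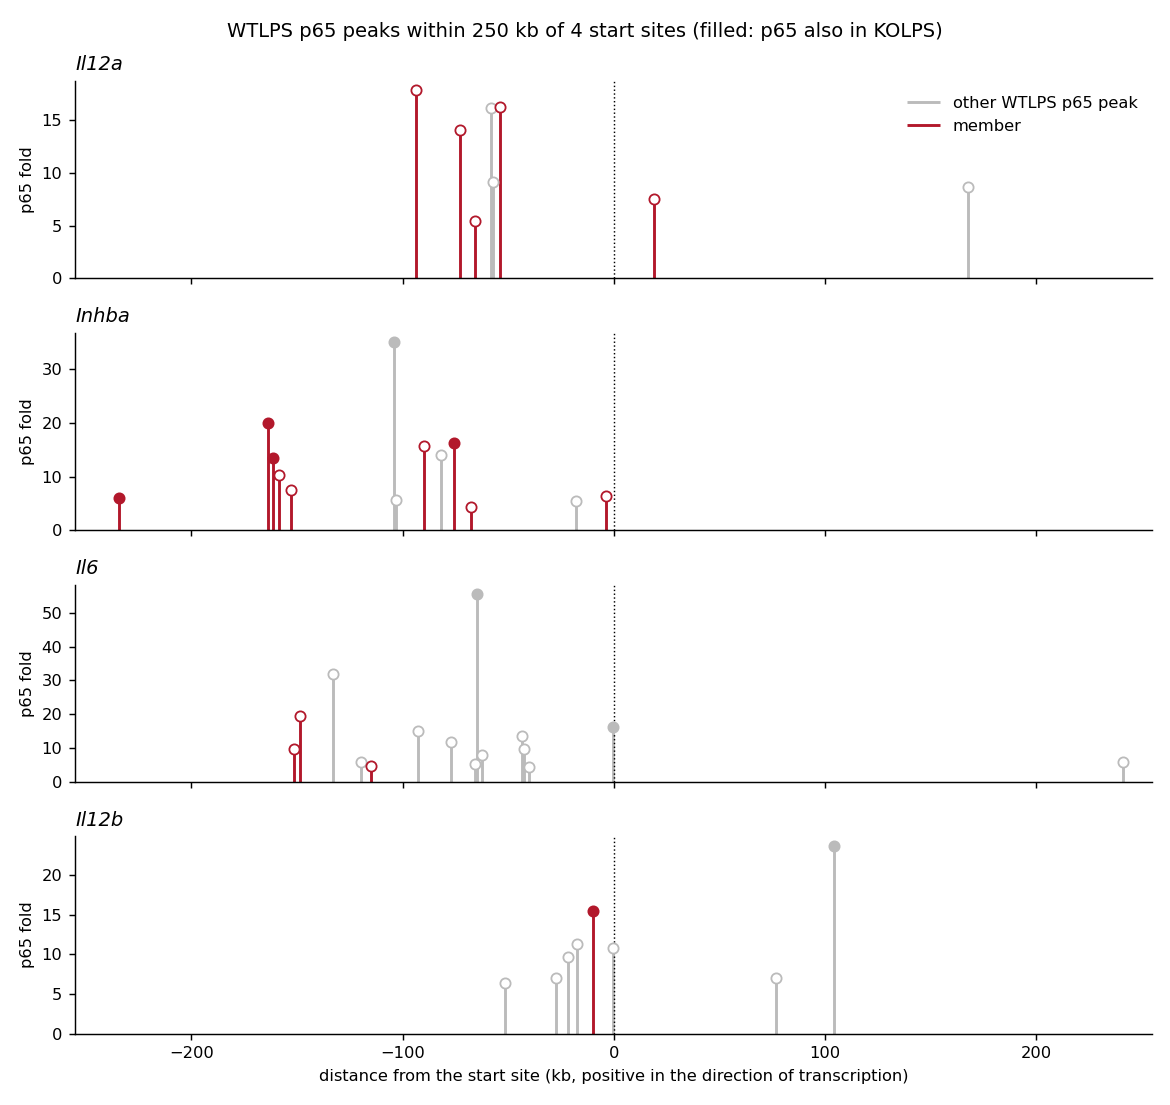
WTLPS p65 peaks within 250 kb of the starts of Il12a, Inhba, Il6 and Il12b, by distance from the start (kb) and p65 fold in WTLPS; red stems are sites of the set described here (members), grey stems other p65 peaks, and filled heads mark p65 also in KOLPS. All 5 red heads near Il12a are open, and 4 of the 9 near Inhba are filled.

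Il12a, which encodes the p35 subunit of IL-12, had 5 of these sites among 8 p65 peaks within 200 kb. They lay 93.6, 72.8, 65.9 and 53.7 kb upstream and 18.9 kb downstream of the start, with p65 folds of 17.79, 14.01, 5.39, 16.26 and 7.55 in WTLPS. None had p65 in KO or KOLPS. SMC1 rose from a fold of 4.17 in WT to 12.27 in WTLPS at the first and from 3.75 to 10.2 at the fourth, was gained at the second and the third (5.47 at each), and was high before and after LPS at the fifth (16.71 and 18.18), which had a CTCF peak in WTLPS and kept one in KO and KOLPS. No KO SMC1 peak overlapped any of the 5, and in KOLPS SMC1 was found at the first (3.79) and the fifth (3.64). H3K27ac was found in KOLPS at 4, all but the third, with folds of 9.73, 4.998, 7.22 and 4.44, against 9.86, 10.9, 14.1 and 6.37 in WTLPS. The Il12a promoter had H3K27ac in WTLPS and KOLPS but not in WT or KO, and had no p65 peak.

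The 9 sites near Inhba lay 3.9 to 234.1 kb from its start, with p65 folds of 4.31 to 19.94. SMC1 was at 4 of them before and 9 after LPS in control cells and at 3 before and 5 after in CTCF-deficient cells, p65 was at 4 in KOLPS, and H3K27ac was at 3 in KO and 5 in KOLPS. Near Itgb8, SMC1 was at 2 of 6 sites before and 6 after LPS in control cells and at 3 before and after in CTCF-deficient cells, with p65 and H3K27ac in KOLPS at 1 each. Nfkbiz encodes the nuclear inhibitor-like protein IkB-zeta. The 5 sites near it had SMC1 at 5 before and after LPS and at 4 in KO and KOLPS. None of them had p65 in KOLPS, and H3K27ac was at 3 in KO and 2 in KOLPS. Those near Tnfaip3, which encodes the NF-kB inhibitor A20, had SMC1 at 2 before and 4 after LPS in control cells and at 1 before and after in CTCF-deficient cells, no p65 in KOLPS, and H3K27ac at 2 in KO and 4 in KOLPS. Near Prkg2, a cGMP-dependent kinase, all 4 sites had SMC1 in all conditions and H3K27ac in KO and KOLPS.

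Among the other genes that the study displayed, Il6 had 3 of these sites, at 151.5, 148.6 and 115.1 kb upstream. Their p65 folds in WTLPS were 9.70, 19.4 and 4.85, none had p65 in KOLPS, and none had H3K27ac in KO. All 3 had H3K27ac in KOLPS (8.33, 6.11 and 4.44), and SMC1 in KOLPS was present at the first (4.91). Il12b, encoding the p40 subunit of IL-12, had 1 site, 9.9 kb upstream, which kept all 3 measurements: p65 15.45 in WTLPS and 6.04 in KOLPS, gained SMC1 9.61 and 4.71, and H3K27ac 6.29 and 4.67. The Acod1 site, 21.2 kb upstream of the start of the gene for the itaconate-producing enzyme, had a p65 fold of 4.85 and none of the 3 in KOLPS. The Ch25h site, 32.9 kb from the start of the gene for cholesterol 25-hydroxylase, had no p65 in KOLPS but SMC1 in all 4 conditions and H3K27ac in KO (6.86) and KOLPS (6.11). Around Il1f6, 79.9 and 126.1 kb from its start, the site nearest to Il1f10 had H3K27ac alone in KOLPS (6.11), and the site in Il1rn, encoding the IL-1 receptor antagonist, had p65 (5.93 in WTLPS, 7.71 in KOLPS), SMC1 and H3K27ac.

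By pathway, sites were counted within 100 kb of the start of each listed gene. Of 28 cytokine genes, 12 had such a site, in all 19 sites (2.77%, against 1.79% of all p65 peaks). They included Il1a, whose site 10.3 kb from the start had p65 folds of 17.25 in WTLPS and 10.46 in KOLPS and SMC1 in all 4 conditions, and Il1b, whose own nearest site, 15.3 kb from its start (7.01), had no SMC1 and none of the 3 in KOLPS. Lif and Osm, neighbouring genes of the IL-6 family, shared 2 sites, 1 with all 3 in KOLPS and 1 with H3K27ac alone. For chemokines and receptors 9 of 23 genes had a site (7 sites, 1.02% against 1.41%), with Cxcl1, Cxcl2, Cxcl3 and Cxcl5 counted on the same cluster. NF-kB subunits and regulators had 6 of 30 genes and 12 sites (1.75% against 2.20%), among them Nfkb1, Ikbke, Ripk2 and Tank. LPS-induced enzymes and transporters had 11 of 28 genes and 12 sites (1.75% against 1.45%). None of these 12 and 12 sites had p65 in KOLPS, where 14.3% of all 686 did. The sites are few and the same count was not made over all p65 peaks near these genes, so it does not set these lists apart. Near Acod1 and Ch25h, some other p65 peaks had p65 in KOLPS and others did not. Transcription factors had 8 of 41 (8 sites, 1.17% against 1.76%), costimulation and adhesion 4 of 18 (0.729% against 1.26%), survival genes 2 of 17 (0.437% against 0.988%), the Toll-like receptor pathway 2 of 20 (0.292% against 0.677%), and interferon-stimulated genes 1 of 29 (0.146% against 0.531%). Neuronal genes, taken for comparison, had 1 of 30 (0.146% against 0.165%). The sites were thus spread over many genes, most of them in none of these lists, and each list held under 3% of them within 100 kb. Within 200 kb, cytokines held 4.23% (against 2.42% of all p65 peaks) and NF-kB subunits and regulators 3.06% (against 2.82%). The other lists stayed under 3%.

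The promoters of the 548 nearest genes were marked about as often as those of the nearest genes of all p65 peaks. H3K4me3 lay at 410 in WT (74.8%, against 75.2%), H3K27ac at 357 in WT (65.1%, against 68.4%) and 383 in WTLPS (69.9%, against 69.0%), and p65 bound 11.3% of them in WTLPS (against 19.3%). H3K27me3 lay at the promoter in WT for 31.8%, against 20.5% of the nearest genes of previously acetylated sites, 38.3% of those of unacetylated sites and 25.7% of those of all p65 peaks. Nearness does not say which gene a site acts on, and expression was not part of these lists.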

How the data were processed

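The series holds 34 chromatin immunoprecipitation samples, 4 of them inputs, and 30 deposited peak lists, 1 for each antibody and condition. Libraries were prepared by tagmentation, reads were aligned to mm10 with BWA, duplicates were removed with Picard and the authors called peaks with MACS2 against input. The submitters' processing notes name BWA 0.7.12, Picard 1.77 and MACS2 2.1.2, and the paper's methods name later versions of all 3, so the versions behind the lists are unsettled. The methods describe peak calling for each sample and replicate, while the paper's reporting summary describes merged replicates, so it is not settled whether a list is merged. The deposited columns hold the fold enrichment at the summit (a ratio to the local background) and −log10 p and q, all as the authors' MACS2 wrote them.

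Lists were intersected at 1 bp or more. Promoters were 2.5 kb on either side of the longest transcript's start of 55413 annotated genes, and nearest genes were protein-coding ones. Fragments at a summit and its background were solved from fold and −log10 p within 0.002, tested on simulated data, and used to thin WTLPS peaks to the KOLPS background. Shares have 95% Wilson intervals, differences between groups of sites Newcombe intervals, and differences between lists at the same sites paired intervals; sites are not replicates, and no p-value was computed. Sequences came from RefSeq GRCm38.p6, which has the mm10 coordinates. Named sites were the 10 with the highest −log10 q, genes nearest to the most sites, listed genes with the most sites within 100 kb, the strongest sites with all or none of the 3 KOLPS measurements, and 6 genes the study displays. The sites, gene lists and tests were chosen with earlier results of these data known. Python 3.11.15, numpy 2.4.6, pandas 2.3.3, scipy 1.17.1 and matplotlib 3.10.9 were used.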

Additional observations from a re-analysis of the deposited data

How the results depend on the processing

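Of 223 comparisons of 22 results with an alternative, 184 kept their direction and side of the threshold or stayed within the interval, 30 moved, 8 lost an interval that excluded 0 and 1 changed sign. No paired analysis was possible because the labels give no replicate numbers and each condition has 1 list. The overlap rule mattered most, since it also redefines the sites: of the 686 sites, 335 met the rule with 50% of the p65 peak covered, 333 at the summit base and 334 with peaks within 1 kb counted. With 50% covered, the summit base and 1 kb in turn, SMC1 was found at 59.0%, 62.1% and 43.0% before LPS, 90.2%, 91.4% and 79.5% after LPS and 53.4%, 57.2% and 34.6% in KOLPS, and H3K27ac at 28.3%, 29.8% and 42.3% in KO and 32.9%, 35.2% and 69.1% in KOLPS. The SMC1 gain was 31.3% with 50% covered and 29.4% at the summit. With the stronger 50% of peaks of each measured list, the shares were 82.9% for prior H3K4me1, 29.0% and 60.1% for SMC1 before and after LPS, 32.1% for its gain, 7.87% for KOLPS p65, 32.1% for KOLPS SMC1, 24.1% for KO H3K27ac and 41.4% for KOLPS H3K27ac. With the stronger 50% of WTLPS p65 peaks, 420 sites remained, with an SMC1 gain of 39.5%, KOLPS p65 at 19.3% and KOLPS H3K27ac at 57.1%. Among sites whose WTLPS SMC1 peak would pass at the KOLPS background, KOLPS SMC1 was 55.1%. Against previously acetylated sites, the prior H3K4me1 difference was -1.22 points with 50% covered and -1.62 at the summit, and the KOLPS p65 difference was -0.753 with 50% covered, 0.572 at the summit and -2.15 with the stronger 50% of KOLPS peaks. Against unacetylated sites, the KOLPS p65 difference was 2.26 points with 50% covered and 5.04 with the stronger WTLPS p65 peaks. The net SMC1 change from KO to KOLPS was 0.583 points with 50% covered and 0.875 with the stronger 50% of SMC1 peaks. The causes were not tested. Other promoter definitions, leaving out chromosomes X and Y, and 1 p65 peak per H3K27ac peak changed no direction or call among these results. Within 100 bp of the summit, the NF-kB consensus was found at 14.6% of sites and the AP-1 motif at 22.9%. With 1 list per condition, differences between cultures and between immunoprecipitations cannot be told apart from CTCF loss or LPS, and weak peaks (44 sites with 7 fragments or fewer) are least certain.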
